A study of Drosophila melanogaster with 16 samples.

Results

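Neuropeptide precursor genes encode secreted signalling peptides of neurons and endocrine cells, and 37 of them, named by FlyBase symbol, were followed through RNA sequencing libraries of P1 neurons from Drosophila melanogaster males. Of these, 36 were matched by gene identifier among the 17559 genes listed in the deposited count tables, and Nplp2 had no match and was not analysed here. P1 neurons are interneurons found in the male brain. They express fruitless (fru) and promote courtship, and the labels put 12 cells in the cluster. All males carried UAS>stop>GFP/+; fruFLP/NP2631-Gal4, a combination in which green fluorescent protein is made only where NP2631-Gal4 is active and fruFLP has removed the stop, and they were 3 to 6 days old when cells were drawn into a patch pipette. The 4 naive libraries came from virgin males kept alone. The 4 mated libraries came from males of the same genotype after pairing with a female. The treatment protocol gives an isolation of 4 to 6 days, which the stated age of 3 to 6 days does not fully allow.

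The number of cells and of animals behind a library is not stated, so p-values measure the spread between libraries, which may in part be technical. The design text speaks of 4 sets of paired males without saying which libraries belong together. Each library was sequenced in 2 runs whose counts were summed. Totals ran from 6897560 to 13651313 counts per library. Counts of fru and doublesex (dsx), the sex-determination genes that define P1 neurons, were looked up in each library. fru had from 588 (mated library 2) to 6973 (naive library 3) counts per library and dsx 265 to 1540, so both were read in all 8 libraries. This cannot settle whether the cells were P1 neurons, since 4276 of the 17559 listed genes were read in all 8. Among them were the photoreceptor marker ninaE and the fat body markers apolpp and Lsp2. Because the cells were pooled into bulk libraries, fewer cells of a type and less RNA per cell cannot be told apart.

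Precursors are cut and chemically modified inside dense core vesicles, released away from or beside synapses, and act mostly on G-protein-coupled receptors over seconds to hours. In the fly brain single peptides are often made by a few identified neurons, and several of them set feeding, sleep, the daily rhythm, aggression and courtship. A precursor was counted as read in a library at 10 or more counts, which corresponded to 0.728 to 1.65 CPM. CPM is the read count scaled to library size, here after adjusting that size by TMM factors for library composition.

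The 36 precursors fell into 4 classes by how many libraries held them. In all 8 libraries 8 were read, namely spab, AstC, Dh44, sNPF, Dh31, NPF, CCHa2 and Nplp1. Another 13 were read in 3 to 7 libraries, 7 were read in 1 or 2 libraries (CCAP, Ilp2, Crz, CCHa1, Ilp5, Akh and Ilp3), and 8 were read in none (RYa, Capa, Hug, Nplp4, Pdf, Lk, ETH and Burs). Among all 17559 listed genes 24.4% were read in every library, so the 22.2% of precursors was near that share. Of the 28 precursors read in at least 1 library, 25.0% were read in only 1 or 2, and 28.6% were read in all 8. Among the 9824 genes of any kind read in at least 1 library these shares were 20.8% and 43.5%. Each library held between 15 and 21 of the precursors. Naive libraries 1 to 4 held 18, 17, 15 and 20, and mated libraries 1 to 4 held 19, 21, 17 and 15. The ranges of the groups overlapped, and neither group held more of the repertoire throughout.

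**Figure D1:**
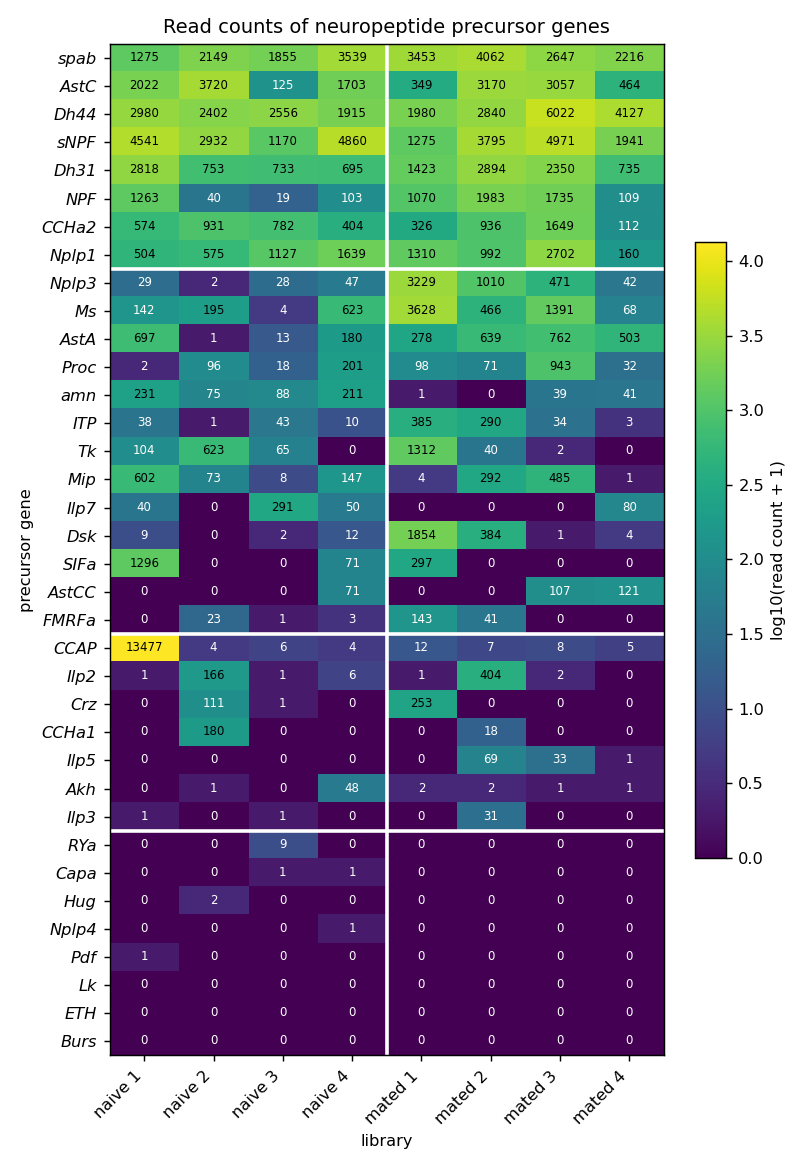
Read counts of the 36 precursor genes (rows) in 4 naive and 4 mated libraries (columns), with the count printed in each cell and the colour giving log10 of the count plus 1. White lines part the genes read at 10 or more counts in all 8 libraries, in 3 to 7, in 1 or 2, and in none, and CCAP stands out with 13477 counts in naive library 1 against 4 to 12 in the others.

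To compare genes with each other, CPM was divided by exon length. On this scale spab, listed among the precursors and lying on chromosome arm 2R, was highest with 258 ± 86.8 CPM per kilobase (SD, n = 8). It was followed by AstC, which encodes the somatostatin-like allatostatin C, at 173 ± 155 CPM per kilobase. Dh44, for a diuretic hormone related to vertebrate corticotropin-releasing factor, stood at 148 ± 46.7, and sNPF, for short neuropeptide F, at 147 ± 67.0 CPM per kilobase. Dh31, for a peptide related to calcitonin gene-related peptide, stood at 128 ± 59.8, and NPF, for the fly relative of neuropeptide Y, at 125 ± 119. The lowest of these 8 were CCHa2, which encodes a peptide that signals nutrient state, at 55.5 ± 32.8 and Nplp1 at 46.3 ± 26.3 CPM per kilobase. The means of spab and AstC lay within 1 SD of each other, as did those from AstC to NPF. The order within each of these sets was not resolved. The standing of CCHa2 and Nplp1 below Dh44 was by more than either SD.

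**Figure D2:**
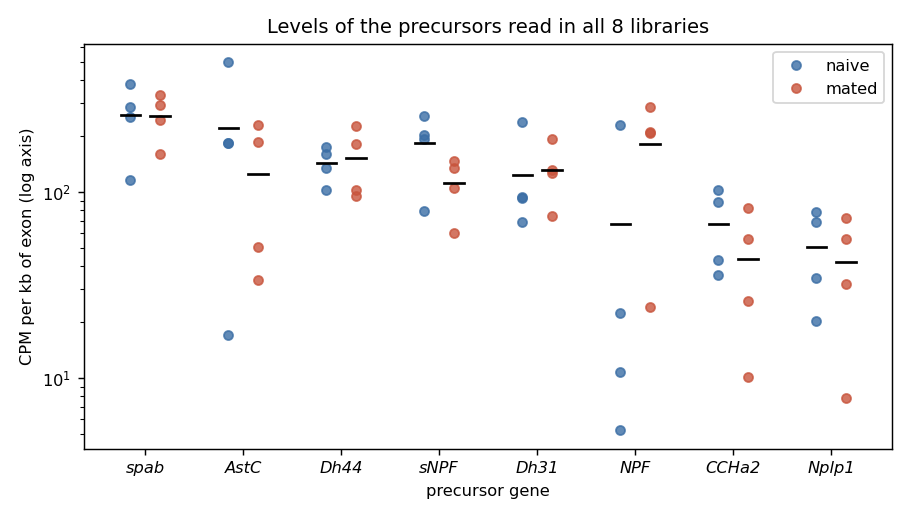
Levels of the 8 precursors read in every library, in CPM per kilobase of exon on a log axis, with 1 point per library (blue naive, red mated, 4 each) and a black bar at each group's mean. Dh44 varied least, followed by spab, sNPF and Dh31, while NPF and AstC spread over a wide range within each group.

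Dh44 was the most even precursor. It lies at chromosome arm 3R, 9638182 to 9650706 (build BDGP6), and its level in naive libraries 1 to 4 was 325, 387, 421 and 248 CPM. In mated libraries 1 to 4 it was 229, 247, 438 and 544 CPM. Its highest library exceeded its lowest by 2.38 times. The naive values all lay within the mated range, with mated libraries 1 and 2 below them and mated libraries 3 and 4 above. The log2 fold change, mated over naive, was 0.08 ± 0.31 (SE; edgeR adjusted p = 0.989).

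spab came next, with 139, 346, 306 and 458 CPM in naive libraries 1 to 4. Its SD of log2 CPM within a group was 0.61, beside 0.50 for Dh44, 0.67 for sNPF and 0.68 for Dh31. Its mated values were 400, 353, 193 and 292 CPM, all inside the naive range. The group means of 312 ± 132 and 309 ± 89.4 CPM (SD, n = 4) differed by less than the spread, the log2 fold change being -0.01 ± 0.34 (SE; edgeR adjusted p = 0.99985).

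sNPF, at arm 2L, 20027915 to 20056373, is widely used in the fly brain as a modulator of feeding and of odour processing. It had 495, 472, 193 and 629 CPM in naive libraries 1 to 4 and 148, 330, 362 and 256 CPM in mated libraries 1 to 4. Of the naive libraries 3 lay above every mated one, and naive library 3 lay below all mated libraries but the first. Its log2 fold change was -0.71 ± 0.36 (SE), which did not pass (edgeR adjusted p = 0.525). Without naive library 3 it was -0.97 ± 0.32 (SE; edgeR adjusted p = 0.356, unadjusted p = 0.00886). With the title number in the model the sign turned (log2 0.40), as described further on.

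Dh31, at arm 2L, 8491868 to 8506845, encodes a peptide with roles in sleep timing and body temperature. Its naive values were 307, 121, 121 and 89.9 CPM, and its mated values were 165, 252, 171 and 96.9 CPM. Both the highest library (naive library 1) and the lowest (naive library 4) were naive, so the mated values lay within the naive range. The log2 fold change was 0.10 ± 0.41 (SE; edgeR adjusted p = 0.991).

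NPF, at arm 3R, 16609220 to 16611325, has roles in feeding, reward and male sexual drive. Naive library 1 held 138 CPM, and mated libraries 1, 2 and 3 held 124, 172 and 126 CPM. Naive libraries 2, 3 and 4 held 6.44, 3.13 and 13.3 CPM, and mated library 4 held 14.4 CPM. The high values thus came from 1 naive and 3 mated libraries. Its log2 fold change was 1.44 ± 1.03 (SE), short of the threshold (edgeR adjusted p = 0.709). Without naive library 1 it was 3.82 ± 0.84 (SE; edgeR adjusted p = 0.147). The lowest value among the fits that each left out 1 library was 1.05.

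AstC, at arm 2L, 11076165 to 11081399, was uneven in both groups. Naive levels were 221, 599, 20.6 and 220 CPM, and mated levels were 40.4, 276, 222 and 61.2 CPM, in the order of library number. The lowest and the highest library were both naive. Its log2 fold change was -0.82 ± 0.83 (SE; edgeR adjusted p = 0.847). Leaving out 1 library gave values from -1.29 (without mated library 2) to -0.04 (without naive library 2). The neighbouring paralog AstCC (2L, 11083459 to 11085229) followed another pattern. It was at 0 counts in 5 libraries and had 71 counts in naive library 4, 107 in mated library 3 and 121 in mated library 4.

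CCHa2, at arm 3R, was read at 62.6, 150, 129 and 52.3 CPM in naive libraries 1 to 4. The mated libraries held 37.7, 81.4, 120 and 14.8 CPM. The groups overlapped, with mated library 4 lowest (log2 fold change -0.63 ± 0.58 SE, edgeR adjusted p = 0.807). Leaving out 1 library gave values from -1.11 (without mated library 3) to -0.31 (without mated library 4). Nplp1, at arm 2R, encodes several short peptides including the IPNamide, and was read at 55.0, 92.6, 186 and 212 CPM in naive libraries. Its mated values were 152, 86.2, 197 and 21.1 CPM. Mated library 4 was again the lowest (log2 fold change -0.26 ± 0.57 SE, edgeR adjusted p = 0.976).

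Spread between libraries differed widely among precursors. Over the 17 precursors that passed the filter on low counts, the median SD of log2 CPM within a group was 2.02, from 0.50 for Dh44 to 3.98 for Tk. For all 7090 genes tested the median was 1.08. Of the 17, 12 lay above that median of all genes. Among the 8 precursors read in every library the median was 0.88, beside 0.66 over the 4276 genes read in every library. These are descriptions, since the filter itself sets which uneven genes enter.

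Nplp3, a neuropeptide-like precursor on arm 3L (16318024 to 16318690), had the largest difference between the groups among the tested precursors. It stood at 3.16, 0.32, 4.61 and 6.08 CPM in naive libraries 1 to 4. In mated libraries 1 to 4 it stood at 374, 87.8, 34.3 and 5.54 CPM. Mated libraries 1, 2 and 3 lay above every naive library, and mated library 4 lay within the naive range, so the groups overlapped. The log2 fold change was 5.13 ± 1.12 (SE) and just missed the threshold of 0.05 (edgeR adjusted p = 0.0635, unadjusted p = 0.000385). Mated library 1 held 66.5% of all Nplp3 counts, and without it the log2 fold change was 3.58 ± 1.22 (edgeR adjusted p = 0.412). Nplp3 passed without mated library 3 (edgeR adjusted p = 0.0489), without mated library 4 (edgeR adjusted p = 0.0192), in the B run alone (edgeR adjusted p = 0.0379) and with DESeq2 (adjusted p = 9.7e-05). Over all alternatives its adjusted p ran from 9.7e-05 to 0.702.

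Summed levels of markers of other cell types were also compared between the groups, and few markers passed the test gene by gene, beside 0.381% of all genes tested. With edgeR, an unadjusted p under 0.05 was found for 6 of 6 fat body markers, 3 of 4 glia markers and 4 of 7 photoreceptor markers tested, all higher in mated. For muscle markers it was 0 of 4. The share over all genes tested was 10.6%. The ranges of the groups were apart for fat body markers and for P1 and general neuron genes. They overlapped for glia, photoreceptor, hemocyte and muscle markers. The 6 fat body markers, for the tissue that secretes blood proteins, summed to 243 to 607 CPM in naive libraries and to 2954, 2174, 1231 and 1625 CPM in mated libraries 1 to 4, with fold changes above 0 for 6 of 6 and 1 past the threshold, apolpp (log2 2.09 ± 0.35 SE, edgeR adjusted p = 0.0163). Glia markers summed to 108 to 306 CPM in naive and 283 to 852 CPM in mated libraries, with fold changes above 0 for 4 of 4 tested genes and 0 past the threshold. Photoreceptor markers summed to 1062 to 1731 CPM in naive and 1292 to 1864 CPM in mated libraries. Without norpA, which brain neurons also express, they summed to 18.5 to 96.9 CPM in naive and 96.1 to 559 CPM in mated libraries. With norpA, 4 of 7 tested genes had fold changes above 0 and 3 below, namely norpA (log2 -0.25), trpl (-1.44) and inaD (-2.49). Past the threshold was 1, Arr2 (log2 3.79 ± 0.66 SE, edgeR adjusted p = 0.0196). Hemocyte markers, of which 0 passed the filter, summed to 0.11 to 3.49 CPM in naive and 1.19 to 15.4 CPM in mated libraries. P1 and general neuron genes, with 0 past the threshold, summed to 6730 to 9749 CPM in naive and 3581 to 6102 CPM in mated libraries. Most of that sum came from the general neuron genes, led by Syt1 (naive mean 3235 CPM, mated 1991 CPM). Taken singly, fru and dsx overlapped between the groups. Naive library 4 had 2671 and 265 counts of them, and mated library 4, with a lower total, had 4130 and 943. Muscle markers overlapped, at 10.2 to 39.2 and 9.56 to 58.5 CPM, with fold changes above 0 for 3 of 4 tested genes and 0 past the threshold. No marker of these lists was at 0 in every library. Mated library 4, the mated library with the lowest Nplp3, was also the lowest mated library for photoreceptor markers without norpA (96.1 CPM) and hemocyte markers (1.19 CPM). It lay above mated library 3 for fat body (1625 against 1231 CPM), glia (624 against 283 CPM) and muscle markers (37.2 against 26.9 CPM). The part of these markers in the Nplp3 difference was not tested.

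**Figure D3:**
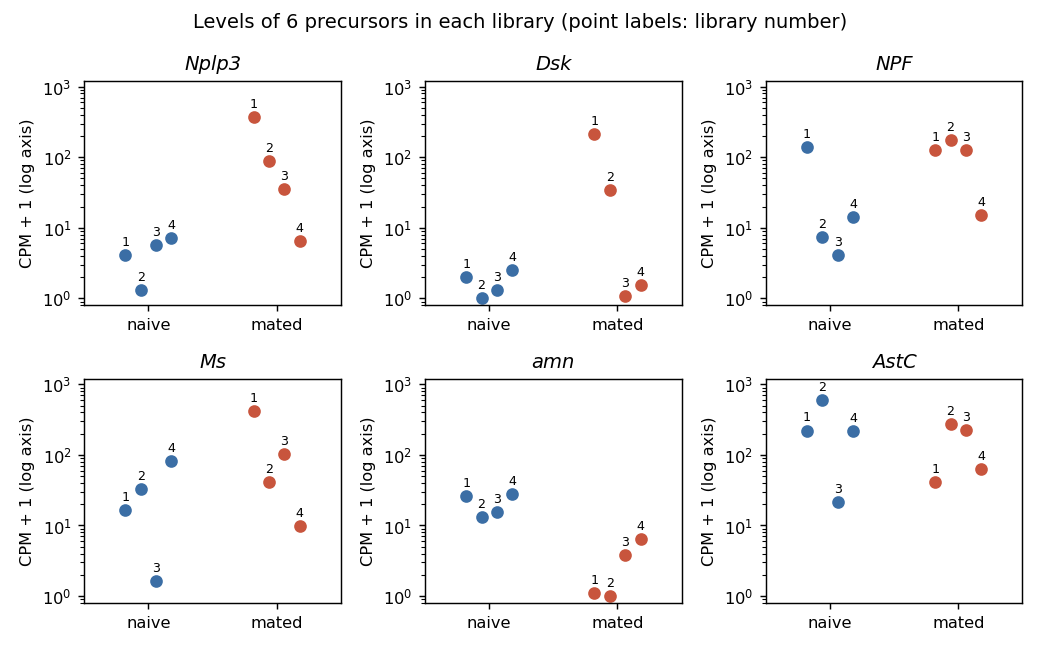
Level of 6 precursors in each library, in CPM plus 1 on a log axis, for naive (blue) and mated (red) males, with each point labelled by its library number. Nplp3 is high in mated libraries 1 to 3, Dsk in mated libraries 1 and 2, NPF in naive library 1 and mated libraries 1 to 3, and amn is higher in all 4 naive libraries than in any mated one.

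Drosulfakinin (Dsk), a cholecystokinin-like peptide tied to satiety and to the restraint of male courtship, had a similar direction on fewer libraries. Its counts were 9, 0, 2 and 12 in naive libraries 1 to 4 and 1854, 384, 1 and 4 in mated libraries 1 to 4. Mated libraries 1 and 2 were high and the other 6 were near or under 10 counts. It did not pass the filter and so had no test in the main comparison. DESeq2, which kept it, called it (log2 fold change 6.42 ± 1.61 SE, adjusted p = 0.0037), and edgeR without a filter did not (log2 6.37 ± 2.02 SE, adjusted p = 0.313). Without a filter 0 of 33 precursors passed, and 5 had an unadjusted p under 0.05, beside 14.1% of all genes.

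Myosuppressin (Ms), a peptide that slows gut and heart muscle, was highest in mated library 1 as well. Its naive levels were 15.5, 31.4, 0.66 and 80.6 CPM. Its mated levels were 420, 40.5, 101 and 8.97 CPM. The groups overlapped (log2 fold change 2.15 ± 1.22 SE, edgeR adjusted p = 0.606). Ion transport peptide (ITP), a peptide of water balance, had a naive range of 0.16 to 7.09 CPM and a mated range of 0.40 to 44.5 CPM (log2 2.51 ± 1.57 SE, edgeR adjusted p = 0.644). Its exons share 296 bases with CG4622 on the other strand.

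amnesiac (amn), a gene first known for its part in memory, was the only tested precursor whose groups did not overlap. It stood at 25.2, 12.1, 14.5 and 27.3 CPM in naive libraries 1 to 4. In mated libraries 1 to 4 it stood at 0.12, 0, 2.84 and 5.41 CPM. The lack of overlap held for 7.66% of all tested genes, so 1 of 17 precursors is near that share. The log2 fold change was -3.24 ± 1.57 (SE) and did not pass (edgeR adjusted p = 0.496, unadjusted p = 0.0574). Its exons share 140 of 3953 bases with Hers on the other strand, and whether reads were counted by strand is not given in the sources used here. Smaller overlaps of this kind are 111 bases for SIFa with Start1, 78 for CCAP with CG6972 and 9 for Ilp7 with Parg.

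Tachykinin (Tk), which promotes male aggression when made by a set of male-specific neurons, was scattered over the groups. Its counts were 104, 623, 65 and 0 in naive libraries and 1312, 40, 2 and 0 in mated libraries. Both groups held a library at 0 counts and a library far above the rest. Allatostatin A (AstA) had 697, 1, 13 and 180 counts in naive and 278, 639, 762 and 503 counts in mated libraries. The mated libraries were all high for AstA and the naive ones split (log2 fold change 1.04 ± 1.07 SE, edgeR adjusted p = 0.850). Myoinhibitory peptide (Mip), a ligand of the sex peptide receptor, ran from 8 to 602 counts in naive and from 1 to 485 counts in mated libraries. Proctolin (Proc), a peptide that drives muscle, ran from 2 to 201 and from 32 to 943 counts. Ilp7, an insulin-like peptide related to relaxin, had 40, 0, 291 and 50 counts in naive libraries and 0, 0, 0 and 80 in mated ones. SIFamide (SIFa), made by a few neurons of the pars intercerebralis and tied to courtship, had 1296 counts in naive library 1, 71 in naive library 4, 297 in mated library 1 and 0 in the other 5. FMRFa reached 23 counts in naive library 2, 143 in mated library 1 and 41 in mated library 2, and 0 to 3 elsewhere.

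Among the 7 precursors read in 1 or 2 libraries, CCAP had by far the most counts. Crustacean cardioactive peptide, its product, drives moulting behaviour and heart rate. Naive library 1 held 13477 CCAP counts, which was 41.3% of all precursor counts in that library and 1470 CPM. In the rest of the naive group CCAP had 4, 6 and 4 counts. Its mated counts were 12, 7, 8 and 5. A count in every library was thus found for CCAP, yet 99.7% of its counts came from naive library 1. That library was also the only one to hold dimm, a transcription factor of peptide-secreting cells, with 12 counts against 0 in the others.

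The insulin-like genes Ilp2, Ilp3 and Ilp5 lie within arm 3L, 9799698 to 9823897, and are made together in the insulin-producing cells of the dorsal brain. Mated library 2 held 404, 31 and 69 counts of them and, with 384 counts of Dsk, was the only library with 10 or more counts of all of these genes. The other listed genes of insulin-producing cells, dimm and Dh44-R1, had 0 and 97 counts there, and Dh44-R1 was read in all 8 libraries. The list also held tobi, a target of insulin and not a marker of these cells. It had 107 counts there and was read in all 8 libraries. Mated library 1 had the most Dsk (1854 counts), with 1, 0 and 0 counts of Ilp2, Ilp3 and Ilp5. Naive library 2 held 166 counts of Ilp2 and 0 of Ilp3, Ilp5 and Dsk. Mated library 3 held 33 counts of Ilp5 and 2 of Ilp2. In the other libraries Ilp2 had 0 to 6 counts, Ilp3 0 or 1 and Ilp5 0 or 1. Ilp2 and Ilp5 were thus each also read without the other.

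Corazonin (Crz), a peptide related to gonadotropin-releasing hormone that controls ejaculation in male flies, was read in naive library 2 with 111 counts and in mated library 1 with 253, and had 0 or 1 count elsewhere. CCHa1, a peptide of the gut and brain, was read in naive library 2 with 180 counts and in mated library 2 with 18. The other 6 libraries had 0 CCHa1 counts. Akh, the adipokinetic hormone made by endocrine cells beside the brain that mobilises fat, was read in naive library 4 alone, with 48 counts against 0 to 2. Of these 7 genes mated library 2 held 4, naive library 2 held 3, mated library 1 held 2, and naive library 3 and mated library 4 held 0.

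The 8 precursors that no library reached at 10 counts were mostly peptides of small, well-known cell groups. Pigment-dispersing factor (Pdf), the output peptide of clock neurons, had 1 count, in naive library 1. RYa reached 9 counts in naive library 3, while Hug and Capa had 2 counts each over all libraries and Nplp4 had 1. Leucokinin (Lk), ecdysis-triggering hormone (ETH) and bursicon (Burs) had 0 of 70226460 counts over the 8 libraries. Lk shares 582 of its 626 exon bases with asRNA:CR44843 and ETH 683 of its 755 with asRNA:CR43257, both on the other strand. Since the strand setting is not given, a 0 for these 2 genes may not measure their expression, and the floor given next does not apply to them. A count of 0 in a library allows up to 3 counts, which is 0.218 to 0.494 CPM at the depth of these libraries. Floors cover counting error alone, since the reads carry no molecular identifiers.

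The comparison of mated with naive males asked which transcripts change with mating. Of the 17 tested precursors 0 passed with edgeR, beside 27 of 7090 genes (0.381%), and 1 of 17, Nplp3, had an unadjusted p under 0.05, beside 10.6% of all genes tested. Higher and lower precursors were 9 and 8 in number, with a median log2 fold change of 0.08, beside -0.01 over all genes. DESeq2 called 2 of 20 precursors, Nplp3 and Dsk, beside 5.21% of 8135 genes. The background of calls was 0.710% in the B run alone, 0.708% without mated library 3 and 0.359% without mated library 4, the fits in which Nplp3 passed. In simulations of this comparison over 7090 genes 0% of changes of log2 size 1, 27.5% of size 2 and 58.0% of size 4 were recovered. The changed genes were drawn at random from all tested genes. These rates are therefore not those of the precursors, whose median SD of log2 CPM was 2.02 beside 1.08 over all genes.

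**Figure D4:**
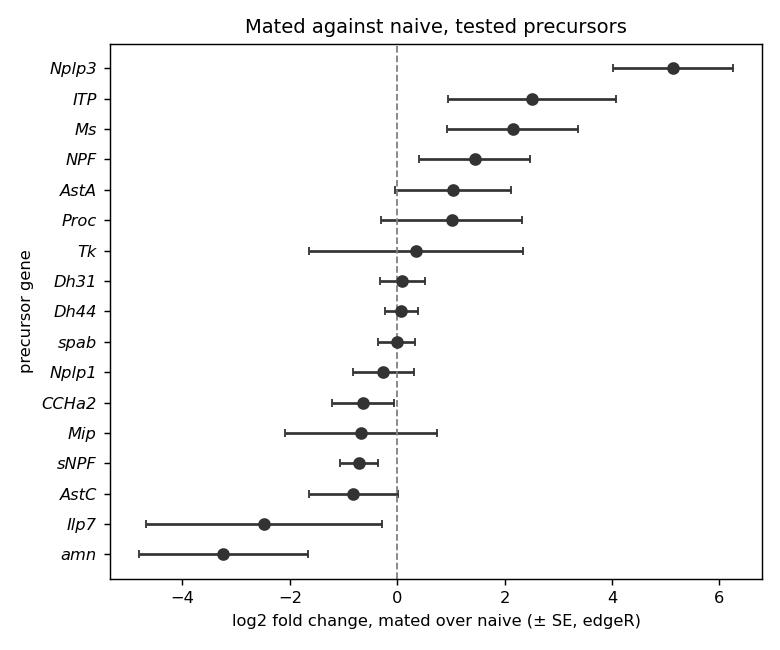
Log2 fold change, mated over naive, of the 17 tested precursors (points) with the standard error from edgeR (bars) and a dashed line at 0. Nplp3 lies farthest to the right at 5.13 ± 1.12 and amn farthest to the left at -3.24 ± 1.57, and the evenly read genes Dh44, Dh31 and spab lie near 0 with short bars.

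A number in the sample titles, whose meaning the labels do not give, was treated as a possible batch. Only number 1119 held both groups, with naive library 3 and mated libraries 1 and 3. Within it, Ms stood at 0.66 CPM in the naive and 420 and 101 CPM in the mated libraries. NPF stood at 3.13 against 124 and 126 CPM, and AstC at 20.6 against 40.4 and 222 CPM. Nplp3 stood at 4.61 against 374 and 34.3 CPM, and amn at 14.5 against 0.12 and 2.84 CPM. With the number as a term, a fit with only 2 residual degrees of freedom, 0 of 17 precursors passed, and NPF, Ilp7, AstA, Nplp3 and Ms had an unadjusted p under 0.05, beside 6.38% of all genes. Their values all rest on the single naive library of that number.

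Genes that process and package these peptides were read in most libraries. Of 10 matched genes for processing and dense core vesicles, 9 were read in all 8 libraries, dimm being the exception. amon, the prohormone convertase, stood at 579 to 1187 CPM, and its helper 7B2 at 692 to 999 CPM. Of the 9 tested, 0 passed and 7 were lower in mated males, with Fur1, a furin protease (log2 -0.63 ± 0.29 SE, edgeR adjusted p = 0.460), and Cadps, a vesicle priming factor (log2 -0.50 ± 0.23 SE, edgeR adjusted p = 0.454), at an unadjusted p under 0.05. The 4 general neuron genes, fru and dsx were also lower in 6 of 6 cases, with 0 past the threshold. Of the 6, 4 had an unadjusted p under 0.05 with edgeR, beside 10.6% of all genes tested. They were fru (log2 -1.44 ± 0.54 SE, edgeR adjusted p = 0.325), elav (-0.70 ± 0.25, 0.297), Syt1 (-0.70 ± 0.27, 0.336) and nSyb (-0.50 ± 0.21, 0.400).

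Receptor genes were set beside their ligands by the number of libraries that held each. Of 25 precursors with a receptor gene in the tables, 6 were read in all 8 libraries, and for 5 of these a receptor was read in all 8 as well. Whatever the ligand, 14 of the 32 receptor genes were read in all 8. Among them were AstA-R1, TkR99D, SPR, FMRFaR and MsR1, whose ligands were read in 3 to 7 libraries. The 5 of 6 is therefore a description and not a sign of matching. CCHa2 was the exception, since CCHa2-R had 0 or 1 count in 5 libraries and 137, 19 and 68 counts in mated libraries 2, 3 and 4. Conversely, Pdfr was read in all 8 libraries at 2.31 to 67.8 CPM while its ligand Pdf had 1 count. The receptors of CCAP and CCHa1 were also read in all 8. Over the 34 receptor genes 28 were tested, of which 10 were higher, 18 lower and 0 past the threshold (median log2 -0.33).

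Of 13 matched precursors outside the 37, Gpb5, a subunit of a glycoprotein hormone, was the only one read in all 8 libraries, at 9.39 to 141 CPM. Ilp1, Eh, natalisin and Gpa2 were at 0 in every library. Orcokinin had 11, 1, 42 and 0 counts in naive and 512, 339, 938 and 4 counts in mated libraries, and like Nplp3 it was high in mated libraries 1 to 3 (log2 4.25 ± 1.58 SE, edgeR adjusted p = 0.317, unadjusted p = 0.0172). Trissin had 873 counts in mated library 2, 290 in mated library 3, 70 in naive library 1 and 1 to 4 elsewhere. Genes of clock neurons (1 of 4 tested higher) and of Kenyon cells (1 of 5 higher) had 0 past the threshold. The list for insulin-producing cells other than insulins also had 0. Its 2 tested genes were Dh44-R1 (log2 -0.55) and tobi, the insulin target (log2 1.07).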

How the data were processed

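The authors deposited raw read counts per gene, by sequencing run (A, B) and summed. The sum equalled A plus B in every row. Per the submitters' processing notes, cutadapt, HISAT2 2.2.1 and featureCounts 1.6.2 were among the tools and dm6 and BDGP6 among the builds named. Annotation release and strand setting are not given in the sources used here. Per the labels' protocols, cDNA was amplified for 15 and again for 12 rounds. Identifiers were matched to names (17253 of 17559), and the 306 without one, 3.12% to 4.59% of counts, were kept. Coordinates and exon lengths are from Ensembl BDGP6 release 115.

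The test was that of edgeR 4.0.16 under R 4.3.3 (filterByExpr on the group, TMM, glmQLFit with the robust option, glmQLFTest, Benjamini-Hochberg over all genes tested, threshold 0.05), over 4 naive and 4 mated libraries. Standard errors are the size of the log2 fold change over the root of its F statistic. The SD of log2 CPM used a prior count of 2. The code was tested on simulated counts. DESeq2 1.42.0, other scalings, filters and runs, the title number, and leaving out each library were alternatives. All 36 precursors are named. The members, the lists and the rule for named genes were chosen with earlier results of these data known. Columns of samples left out numbered 0.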

Additional observations from a re-analysis of the deposited data

Results flagged for a closer look

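On the log2(CPM + 1) scale, 53 sets of 4 libraries (a precursor in 1 group, with at least 1 library at 10 counts) were checked for a library whose gap to the nearest of the others exceeded Dixon's critical value for 4 values, and 14 had one. Chance gives about 1 in 20 for sets not chosen by their values. That rate does not apply here, since a set entered only by holding a library at 10 or more counts, and 10 of the 14 are of genes already described as read in 1 or 2 libraries. The values are therefore a description.

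In naive libraries the high ones were CCAP in library 1 (1470 CPM, the others at most 0.99), CCHa1 (29.0 CPM), Ilp2 (26.7 CPM) and Crz (17.9 CPM) in library 2, and AstCC (9.18 CPM) and Akh (6.21 CPM) in library 4. Naive library 2 thus stood apart for 3 precursors.

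In mated libraries the high ones were Ilp2 (35.1 CPM), Ilp3 (2.69 CPM) and CCHa1 (1.56 CPM) in library 2, SIFa (34.4 CPM), Crz (29.3 CPM) and CCAP (1.39 CPM) in library 1, and Ilp7 (10.5 CPM) in library 4. NPF was low in mated library 4, at 14.4 CPM against 124 to 172 CPM in the others. The values of CCAP, CCHa1 and Ilp3 in mated libraries rest on 12, 18 and 31 counts.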

How the results depend on the processing

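The 8 precursors read in every library numbered 7 to 10, and the 7 read in 1 or 2 libraries 6 to 10, over the other floors, single runs and left-out libraries. No precursor was called in the reported fit, 1 in the B run alone, 2 with DESeq2, and 0 to 1 when a library was left out. Leaving out naive library 1 and mated library 1 together, a choice made after seeing the data, gave 0, with a log2 fold change of 3.53 for Nplp3. Scaling by library size alone moved the median log2 fold change of all genes from -0.01 to 0.17. With the title number in the model the sign turned for 4 of the 17 tested precursors, AstC (2.67), sNPF (0.40), Mip (3.75) and Dh44 (-0.34). The value of spab, near 0, changed sign under upper-quartile scaling (0.0095), library size alone (0.19), no filter (0.012), at least 10 counts in every library (0.11) and the B run alone (0.014). When a library was left out, log2 fold changes ran from -0.27 to 0.22 for spab, from -0.19 to 0.25 for Dh44, from -0.15 to 0.62 for Dh31 and from -0.63 to 0.079 for Nplp1. Those of Nplp3 ran from 3.58 to 5.52, and it passed in the B run alone (5.21) and with DESeq2 (5.14). The causes were not tested. No paired analysis was possible because the labels do not say which naive library belongs with which mated one. At this depth a count of 0 allows up to 3 counts in a library.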
